A study of Arabidopsis thaliana with 8 samples.

Results

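The miRNAs described here are those whose best-known targets are mRNAs of transcription factors. They were taken from the list of 427 mature miRNA entries as the entries named miR156, miR157, miR159, miR160, miR164, miR165, miR166, miR167, miR169, miR170, miR171, miR172, miR319 or miR396. The rule found 64 entries from 32 hairpins and 13 of the 14 families, with 49 different mature sequences 20 to 23 nt long. No entry carried the name miR319. A further 32 entries of the same families are listed by coordinates only and are not among the 64.

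Small RNAs (sRNAs) were sequenced from Arabidopsis thaliana endosperm, the nourishing tissue of the seed, at 7 days after pollination of Ler mothers by Col-0 fathers, to ask what the loss of NRPD1 in one or both parents does to sRNAs. NRPD1 is the largest subunit of RNA polymerase IV (Pol IV), and the nrpd1a-4 allele is a T-DNA insertion from Col-0 that was introgressed into Ler. There were 8 libraries: mat nrpd1+/- (nrpd1-/- Ler mother crossed to a WT Col-0 father, n = 3), pat nrpd1+/- (WT Ler mother crossed to an nrpd1-/- Col-0 father, n = 2, numbered 2 and 3) and nrpd1-/- from mutant mothers and fathers (n = 3). All libraries thus carry the mutant allele from at least 1 parent, no plant was treated, endosperm of many hand-dissected seeds was pooled in each library, replicates came from crosses of different parent plants, and WT libraries were not analysed here. The tables count sRNAs, so mRNA markers of endosperm, embryo or seed coat could not be read from them, and in such bulk tissue fewer cells of a type and less RNA per cell cannot be told apart.

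Plant miRNAs are cut by DICER-LIKE1 from folded hairpin transcripts made by RNA polymerase II, mostly as duplexes of about the length of the 21-nt class. One strand, the guide, is loaded into ARGONAUTE1 and directs cleavage or translational repression of a closely complementary mRNA, and the other strand is usually short-lived. Each mature entry is the 5′ arm (5p) or the 3′ arm (3p) of such a hairpin. Pol IV instead makes precursors of siRNAs, chiefly of the 24-nt class, so 24-nt reads at a miRNA may come from the hairpin or from siRNAs over the same bases, and the tables do not tell these sources apart.

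The most abundant 21-nt entry of each family is shown because the levels given later rest on it. The letters are the RefSeq TAIR10.1 sequence, 5′ to 3′, with the seed (bases 2 to 8) in capitals, and each lies in a noncoding MIR gene, within the hairpin part of its primary transcript.
miR156d-5p: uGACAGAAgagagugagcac, chr5:3456713-3456732, minus strand
miR157b-5p: uUGACAGAagauagagagcac, chr1:24921104-24921124, plus strand
miR159b-3p: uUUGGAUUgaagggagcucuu, chr1:6220813-6220833, plus strand
miR160a-5p: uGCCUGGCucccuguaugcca, chr2:16340282-16340302, plus strand
miR164b-5p: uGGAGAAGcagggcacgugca, chr5:287586-287606, plus strand
miR165a-3p: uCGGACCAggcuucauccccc, chr1:78932-78952, minus strand
miR166a-3p: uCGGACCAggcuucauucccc, chr2:19176241-19176261, plus strand
miR167a-5p: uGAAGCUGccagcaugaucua, chr3:8108090-8108110, plus strand
miR169g-3p: uCCGGCAAguugaccuuggcu, chr4:11483034-11483054, minus strand
miR170-3p: uGAUUGAGccgugucaauauc, chr5:26411594-26411614, minus strand
miR171a-5p: uAUUGGCCugguucacucaga, chr3:19073452-19073472, plus strand
miR172d-3p: aGAAUCUUgaugaugcugcag, chr3:20587991-20588011, plus strand
miR396b-5p: uUCCACAGcuuucuugaacuu, chr5:13611808-13611828, plus strand

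The second set holds the entries with another sequence that passed a test in 1 or more of the comparisons. Most are the arm opposite to the guide.
miR156a-3p: gCUCACUGcucuuucugucaga, chr2:10676470-10676491, minus strand
miR156b-3p: uGCUCACCucucuuucugucagu, chr4:15075004-15075026, plus strand
miR156d-3p: gCUCACUCucuuuuugucauaac, chr5:3456643-3456665, minus strand
miR160c-3p: cGUACAAGgagucaagcauga, chr5:19009095-19009115, minus strand
miR164b-3p: cAUGUGCCcaucuucaccauc, chr5:287716-287736, plus strand
miR167a-3p: gAUCAUGUucgcaguuucacc, chr3:8108172-8108192, plus strand
miR169b-3p: gGCAAGUUguccuucggcuaca, chr5:8527592-8527613, plus strand
miR169g-5p: uGAGCCAAggaugacuugccg, chr4:11483094-11483114, minus strand
miR171c-5p: aGAUAUUGgugcgguucaauc, chr1:22930157-22930177, minus strand
miR171c-3p: uUGAGCCGugccaauaucacg, chr1:22930095-22930115, minus strand
miR172b-3p: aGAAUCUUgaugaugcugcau, chr5:1188211-1188231, minus strand
miR396a-5p: uUCCACAGcuuucuugaacug, chr2:4142443-4142463, minus strand
miR396a-3p: gUUCAAUAaagcugugggaag, chr2:4142331-4142351, minus strand
miR396b-3p: gCUCAAGAaagcugugggaaa, chr5:13611904-13611924, plus strand

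Seeds grouped the members into 37 sets. The 5 miR156-5p entries shared 1 sequence, miR165a-3p had the seed of the miR166-3p entries, and miR170-3p had that of miR171a-3p. In all, 31 of the 64 members were identical in sequence to another mature entry, so their reads cannot be assigned with certainty to 1 hairpin. The identical miR171b-3p and miR171c-3p are 1 such pair, and the identical miR170-5p and miR171a-5p are another that crosses family names.

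Values are read counts per 10000 mature miRNA reads of the same library and size class, so a difference is relative to all mature miRNAs. The 21-nt class held 475388 to 751149 mature miRNA reads per library, and the 24-nt class held 13118 to 38607. Both pat nrpd1+/- libraries stood apart from each other: between them the chi-square of 21-nt miRNA counts was 207 per degree of freedom, against 25.8 to 32.3 for the pairs of mat nrpd1+/- libraries. At 24 nt it was 17.2 between the pat libraries and 3.57 to 6.49 for the mat pairs. In nrpd1-/- it was 16.9 and 10.5 for replicate 3 against replicates 1 and 2, and 4.28 between replicates 1 and 2. The counts of called members that rest on the pat libraries are therefore also given without either one. Such a fit has 1 pat library left, with no replicate, which is assumed to vary like the libraries of the other group. The only 21-nt table of nrpd1-/- seen here is incomplete and repeats pat nrpd1+/- values, so nrpd1-/- was compared at 24 nt only.

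At 21 nt the members were a large share of the mature miRNA reads in both reciprocal heterozygotes. The mat nrpd1+/- libraries gave 26.1%, 25.4% and 25.8%, and the pat nrpd1+/- libraries gave 22.5% and 27.0%. The pat values lay on both sides of the mat values, and the difference of the means, -1.05 percentage points, was within the spread (two-sided exact permutation test, p = 0.7; 3 against 2 libraries cannot go below 0.1). Without pat replicate 2 the difference was 1.19, and without pat replicate 3 it was -3.30. Among families, miR159, which targets GAMYB-like MYB genes, gave 38.4% of the member reads, miR167 22.2% and miR396 15.6%. The next were miR172 and miR166, and 8 families together gave the small remainder. Among these 8 is miR156, whose guides are annotated at 20 nt, so that reads of that length are not counted here. The plot of 21-nt reads by family shows the range from miR159 down to miR169.

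**Figure D1:**
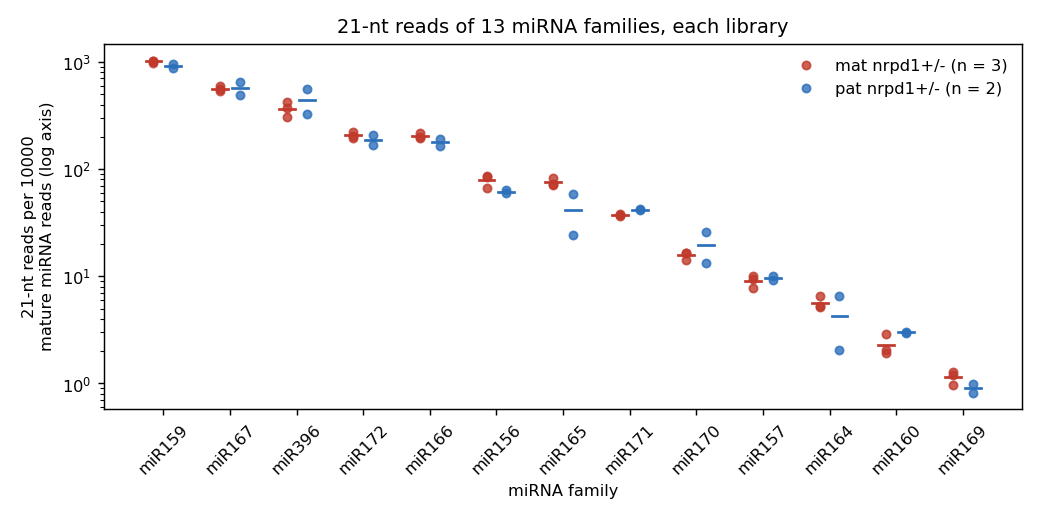
21-nt reads per 10000 mature miRNA reads (log axis) for 13 miRNA families in each library, with mat nrpd1+/- (n = 3) in red and pat nrpd1+/- (n = 2) in blue, and lines at the group means. The family order runs from miR159 (mean 1009 in mat nrpd1+/-) to miR169 (1.14), and no family passed the test between the groups.

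None of the 13 families differed in 21-nt level between pat and mat nrpd1+/- at an adjusted p of 0.05 or less (edgeR quasi-likelihood test, Benjamini-Hochberg adjustment over 3282 features, of which 11.2% were higher and 2.65% lower, 13.8% in all). At an unadjusted p under 0.05 there was 1 family, beside 837 of 3357 features in the fit of single entries. DESeq2 called 0 families. That family was miR165, which with miR166 targets class III HD-ZIP genes: it had 72.7, 82.0 and 71.2 reads per 10000 in mat and 58.5 and 24.2 in pat nrpd1+/-. Both pat libraries were below all mat libraries, but they differed more from each other than the groups did (log2 fold change -0.86, SE 0.33, adjusted p = 0.096). Without pat replicate 2, with 1 pat library left, 2 families were called lower, and without pat replicate 3 there were 0. With all reads of the table as library size, 4 families and 8 entries were called lower.

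The most abundant entry of each family was followed in every library, and none of these entries passed the test. miR159b-3p, the guide against MYB33, MYB65 and MYB101, had 1019, 979 and 1028 reads per 10000 in mat and 875 and 950.4 in pat nrpd1+/-. Its pat values were just below the mat values. miR396b-5p, the guide against growth-regulating factor (GRF) genes, had 385, 270.4 and 323 reads per 10000 in mat and 311 and 549.6 in pat, so that the highest value belonged to 1 pat library.

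Of the guides that act in auxin signaling, miR167a-5p, which targets ARF6 and ARF8, had 539, 571 and 510.4 reads per 10000 in mat and 460.4 and 614 in pat nrpd1+/-. The groups overlapped fully. miR160a-5p, which targets ARF10, ARF16 and ARF17, was scarce at 2.00, 1.39 and 1.19 against 2.09 and 2.17. The guide against the NAC genes CUC1 and CUC2, miR164b-5p, had 2.82, 3.31 and 4.60 reads per 10000 in mat and the highest and the lowest value, 5.71 and 1.56, in the pat libraries.

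Of the guides tied to developmental phase, miR156d-5p, which targets SPL genes, had 17.5, 22.5 and 24.4 reads per 10000 in mat and 12.3 and 13.6 in pat nrpd1+/-. This guide is annotated at 20 nt, and reads of that length are not in the 21-nt class. Its level here is thus not like for like with those of guides annotated at 21 nt, such as miR157b-5p. miR172d-3p, which targets AP2-like genes, had 196, 216 and 189.5 against 157.1 and 193. miR157b-5p, with a sequence close to that of miR156, had 5.16, 6.35 and 6.37 against 6.23 and 5.62. The miR156d-5p entry was lower in both pat libraries without passing the test, and the miR172 and miR157 entries overlapped. So did the miR156-5p members of the other hairpins, which are identical in sequence to miR156d-5p. An example is miR156b-5p, at 14.4, 18.2 and 19.0 in mat against 17.5 and 13.5 in pat.

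The remaining entries overlapped except for miR165a-3p, against HD-ZIP III genes, which had 66.0, 76.4 and 64.5 reads per 10000 in mat and 54.7 and 23.4 in pat nrpd1+/- (log2 fold change -0.82, SE 0.33, edgeR adjusted p = 0.12). miR166a-3p, against HD-ZIP III genes, had 84.0, 84.3 and 90.1 reads per 10000 in mat and 84.2 and 71.7 in pat nrpd1+/-. miR170-3p, against the GRAS genes HAM1 to HAM3, had 6.92, 9.53 and 5.50 against 7.20 and 14.9. miR171a-5p is the more abundant arm of miR171a here, although the 3p arm is the one known to target HAM genes, and it had 24.1, 20.4 and 23.6 against 19.2 and 29.9. miR169g-3p is the arm opposite to the guide for NF-YA genes, and the family was the scarcest, with miR169g-3p at 0.686, 0.726 and 1.13 against 0.719 and 0.442.

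Few single arms passed the test at 21 nt. Of the 64 entries 48 passed the filter on low counts, and 3 of these were lower in pat than in mat nrpd1+/- and 0 higher at an adjusted p of 0.05 or less. Over all 3357 features tested, 2.65% were called lower and 10.9% higher, 13.6% in all. The median log2 fold change of the 48 members was -0.04 and that of all features 0.05. At an unadjusted p under 0.05 there were 11 of the 48 members, beside 837 of all 3357 features. DESeq2 called 2 members lower and 0 higher.

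All 3 called entries were the 3p arm of a hairpin whose guide is the 5p arm. miR396b-3p had 38.4, 30.4 and 47.0 reads per 10000 in mat and 14.1 and 8.35 in pat nrpd1+/-, and the groups were well apart (log2 fold change -1.78, SE 0.33, edgeR adjusted p = 6.99e-04). miR164b-3p had 2.18, 1.77 and 1.75 against 0.559 and 0.379, again without overlap (-1.99, SE 0.37, adjusted p = 6.10e-04). miR396a-3p had 0.766, 0.665 and 0.887 against 0.426 and 0.126 (-1.39, SE 0.43, adjusted p = 0.0397). This last call rested on 6 to 44 reads per library and was lost without pat replicate 3 (-0.86) and without mat replicate 1 or 3 (-1.41 and -1.28). Without pat replicate 2, 6 members were called, 5 lower and 1 higher, and without pat replicate 3 there were 3, all lower, each with 1 pat library left.

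The 5p partners of these arms were not called. miR396a-5p had 2.38, 1.61 and 1.61 reads per 10000 in mat and 3.74 and 3.58 in pat nrpd1+/-, above all mat values but not past the threshold (log2 fold change 0.97, SE 0.33, edgeR adjusted p = 0.061). The share of the 3p arm in the reads of a hairpin does not depend on how libraries are scaled. For miR396b it was 9.07%, 10.1% and 12.7% in mat and 4.35% and 1.497% in pat nrpd1+/-. For miR396a it was 24.4%, 29.2% and 35.5% against 10.2% and 3.41%. For miR164b it was 43.5%, 34.9% and 27.6% against 8.92% and 19.6%. In each of these hairpins every pat library was below every mat library. They were chosen for the calls of their 3p arms, so these shares are a description with no test.

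Of the 32 hairpins 26 had at least 50 reads in each library. The ranges of the 3p share did not overlap between the groups at 7 of them, lower in pat nrpd1+/- at 4 and higher at 3, beside 13.6% of all 21-nt features called. The calls come from a test and not from ranges, so these numbers cannot be compared. With so few libraries ranges can also be apart by chance. The count of 7 was not tested, nor recomputed without either pat library. The fourth lower one was miR160a, and the higher ones were miR157b, miR165a and miR167a. In mat nrpd1+/- the 5p arm was the major arm at 17 hairpins and the 3p arm at 9. The 3p arm was the major arm at every miR159, miR165, miR166 and miR172 hairpin among the 26, and at miR171b.

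**Figure D2:**
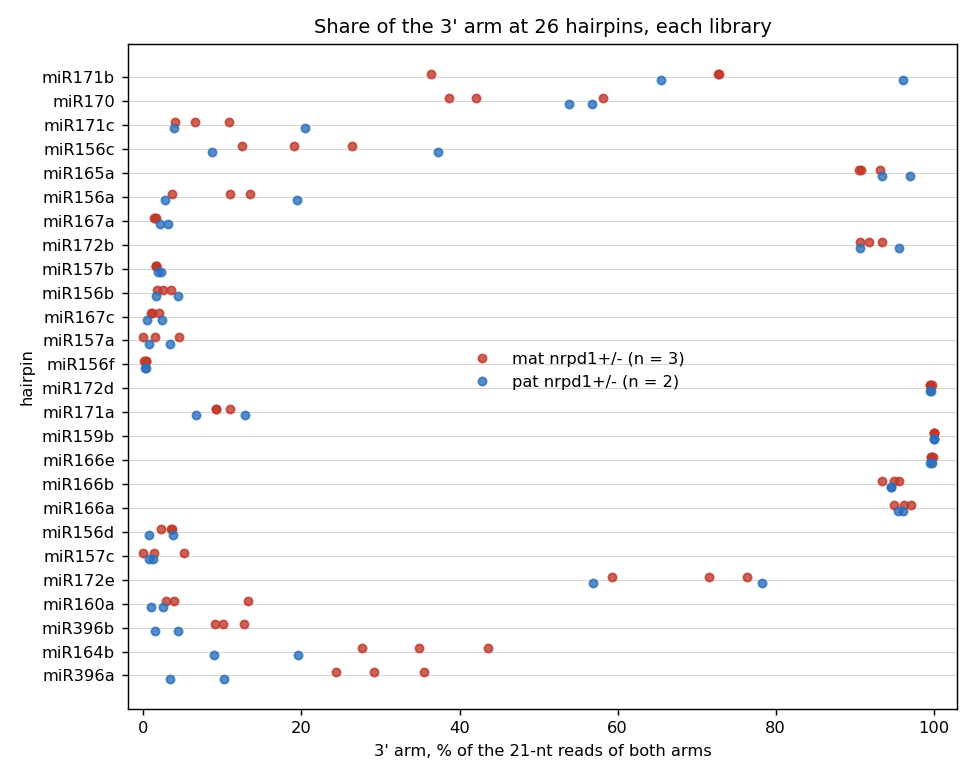
Share of the 3′ arm in the 21-nt reads of both arms (%), at the 26 hairpins with at least 50 reads in each library, with mat nrpd1+/- (n = 3) in red and pat nrpd1+/- (n = 2) in blue and 1 point per library. Hairpins are ordered by the difference of the means, so miR396a, miR164b and miR396b, with the lower 3p share in pat nrpd1+/-, stand at the bottom.

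At 24 nt the members were a smaller share of mature miRNA reads, and it was highest in nrpd1-/-. The mat nrpd1+/- libraries gave 4.89%, 5.63% and 5.36%, the pat libraries 4.88% and 4.19%, and the nrpd1-/- libraries 6.39%, 6.11% and 7.56%. All nrpd1-/- libraries were above all libraries of either heterozygote, with differences of the means of 1.39 and 2.15 percentage points (two-sided exact permutation tests, p = 0.1 each, the smallest these designs allow). Mature entries of any family were 1.60% to 1.91% of all 24-nt reads of the gene table in mat nrpd1+/-, 1.17% to 1.18% in pat and 6.55% to 6.99% in nrpd1-/-.

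The families also ranked differently at 24 nt. In mat nrpd1+/- miR167 had 144 ± 30.5 reads per 10000 (SD, n = 3), miR156 had 138 ± 11.5 and miR171 had 94.4 ± 19.7, while miR159 had 12.4 ± 5.06. These ranks hold for the named members only, and the miR159 value is that of miR159b. Among entries listed by coordinates only, miR159c had 190 ± 22.5 and miR159a 66.5 ± 13.5 in mat. Set against the 21-nt reads of the same library, all members together had 7.22 ± 0.677 24-nt reads per 1000 in mat (n = 3) and 7.73 ± 4.86 in pat nrpd1+/- (n = 2), and entries of other families had 85.4 ± 3.64 and 76.1 ± 24.2.

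This ratio spanned a wide range among families. For miR156, whose guides are annotated at 20 nt, the 21-nt reads leave out those of the annotated length. It was 0.633, 0.371 and 0.294 per 1000 for miR159 in mat nrpd1+/- and 0.289 and 0.332 in pat. It was 373, 333 and 508 for miR169 in mat and 667 and 308 in pat. For miR160 it was 134, 137 and 179 in mat and 50.0 and 27.6 in pat, without overlap. Among the named members miR159, the most abundant family at 21 nt, thus had the lowest ratio in the plot. miR169, the scarcest, had the highest, where the 21-nt reads are also the denominator. The miR159 ratio is that of miR159b alone. miR159c, listed by coordinates only, had 380, 317 and 297 24-nt reads to 2076, 2002 and 2698 21-nt reads in mat. The order was not that of 21-nt abundance throughout: miR170, among the less abundant families at 21 nt, had 0, 3.69 and 4.26 in mat. At miR156d-3p, annotated at 23 nt long, 24-nt reads outnumbered 21-nt reads, 87 to 32, 106 to 41 and 89 to 28 in the mat libraries. The same held at miR396a-3p in mat replicates 1 and 2, with 54 to 38 and 46 to 33 reads.

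**Figure D3:**
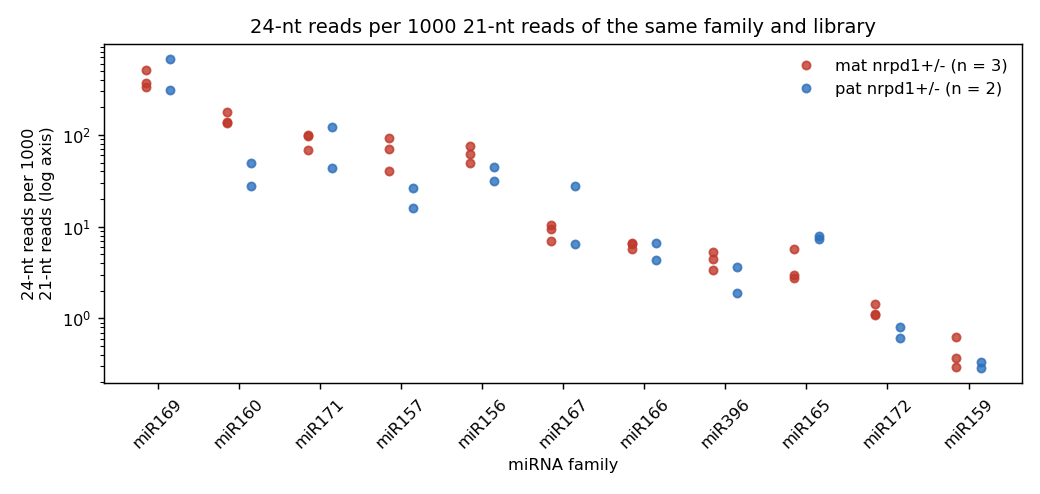
24-nt reads per 1000 21-nt reads of the same family and library (log axis), with mat nrpd1+/- (n = 3) in red and pat nrpd1+/- (n = 2) in blue and 1 point per library; miR164 and miR170 are left out because a library had no 24-nt read. miR169 stands highest (333 to 508 in mat nrpd1+/-) and miR159, here miR159b alone, lowest (0.294 to 0.633).

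Between the heterozygotes at 24 nt, the members called were lower in pat than in mat nrpd1+/-. Of the 11 families tested, 2 were lower and 0 higher, against 6.16% lower and 4.83% higher over 8073 features (11% in all). miR157, against SPL genes, had 20.5, 18.6 and 11.9 reads per 10000 in mat and 5.18 and 5.34 in pat (log2 fold change -1.69, SE 0.39, edgeR adjusted p = 3.55e-04). miR160, against ARF genes, had 10.8, 7.87 and 10.1 against 2.85 and 3.05 (-1.70, SE 0.46, adjusted p = 0.00352). Neither family overlapped between groups. Both passed the filter through their mat reads, which favoured a lower call in advance.

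Of the 64 entries 18 passed the filter in this comparison, and 4 were lower in pat and 0 higher, against 6.09% and 4.78% of 8096 features (10.9% in all). The median log2 fold change was -0.71 for the 18 and -0.21 for all features. miR156d-3p had 49.5, 59.6 and 52.8 reads per 10000 in mat and 9.84 and 29.7 in pat nrpd1+/-, all apart (log2 fold change -1.57, SE 0.39, edgeR adjusted p = 0.00134). The scarcer miR160a-5p had 6.83, 5.06 and 7.71 against 0.777 and 1.52, which is 9 to 13 reads against 3 and 2 (-2.65, SE 0.79, adjusted p = 0.0115). The others were miR396b-3p, at 9.10, 10.1 and 7.71 against 3.11 and 3.81 (-1.42), and miR156a-3p, whose groups overlapped (-1.09). Both miR160a-5p and miR396b-3p passed the filter through their mat reads, which favoured a lower call in advance. Without pat replicate 2, with 1 pat library left, 0 entries and 0 families were called, while the log2 fold changes were -1.66 for the miR157 family, -1.63 for miR160, -2.04 for miR160a-5p, -1.22 for miR396b-3p, -0.86 for miR156d-3p and -0.34 for miR156a-3p. Without pat replicate 3 there were 8 entries lower and 1 higher, and 4 families lower and 1 higher. With DESeq2, 1 entry and 0 families were called, with table totals as library size 13 entries and 7 families, all lower, and with the replicate number as a block 0 entries and 2 families. At an unadjusted p under 0.05 there were 7 entries and 5 families, beside 1698 of the 8096 features in the fit of single entries.

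In nrpd1-/- most features had far fewer 24-nt reads relative to mature miRNAs, and the members were called in both directions. Against mat nrpd1+/-, 88.7% of 5578 features were lower and 2.76% higher (91.4% in all), with a median log2 fold change of -5.13. Mature miRNA entries of other families, whose reads are part of the scale, also went both ways. Of 137 tested, 69 were lower and 28 higher, with a median of -0.79. Of the 18 members that passed the filter 4 were lower and 3 higher, with a median of 0.16. By DESeq2's size factors 16 of 18 were higher and 0 lower, and with TMM factors over all features 23 of 24 were higher and 0 lower, and the median of all features was then -1.04 and -1.05. Each change below is therefore relative to mature miRNAs, and those that turn under another scaling are named. An entry near 0 in 1 group passed the filter through the other group, so that such an entry had to differ.

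Among the called members, the most negative fold changes in nrpd1-/- were at both arms of miR396a and 1 arm of miR171c. miR396a-3p had 54, 46 and 39 24-nt reads in mat, 53 and 30 in pat and 1, 2 and 1 in nrpd1-/-. Per 10000 this was 30.7, 25.9 and 23.1, then 13.7 and 22.9, then 0.315, 0.712 and 0.509. The nrpd1-/- libraries were far below both heterozygotes (log2 fold change -5.57, SE 0.55, edgeR adjusted p = 3.89e-22 against mat, and -5.01, SE 0.70, adjusted p = 2.21e-12 against pat). As miR396a-3p passed the filter through the heterozygotes, a lower call was favoured in advance. Scaled by all features it was still negative against mat (-1.29, adjusted p = 0.08) but no longer passed. DESeq2 gave -1.46 against mat and -1.94 against pat, neither past the threshold. From pooled reads the level was 52.9 times higher in mat than in nrpd1-/- (95% exact interval of counting error only, 20.2 to 197).

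miR396a-5p, a guide against GRF genes with the seed of miR396b-5p, had 13, 9 and 5 24-nt reads in mat, 21 and 8 in pat and 0, 1 and 1 in nrpd1-/-. It passed the filter only against pat (-4.24, SE 0.70, adjusted p = 2.50e-09). This was through its pat reads, which favoured a lower call in advance. The pooled ratio of mat to nrpd1-/- was 20.6 (5.16 to 178).

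The other miR396 hairpin did not follow. miR396b-3p had 16, 18 and 13 24-nt reads in mat, 12 and 5 in pat and 31, 27 and 15 in nrpd1-/-, or 9.76, 9.61 and 7.64 per 10000 in nrpd1-/- against 9.10, 10.1 and 7.71 in mat. Its nrpd1-/- values were higher than in pat (log2 fold change 1.43, SE 0.60, edgeR adjusted p = 0.0186, lost without pat replicate 2, at 1.24) and overlapped those of mat. As a share within a library, miR396a gave 71.3%, 68.8% and 69.8% of the 24-nt reads of both miR396 hairpins in mat, 81.3% and 74.5% in pat and 2.56%, 7.69% and 9.52% in nrpd1-/-. This share is free of scaling, and the groups did not overlap. The hairpins were chosen for the calls above, so it is a description with no test.

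At miR171c the contrast lay between the arms of the same hairpin. miR171c-3p, a guide against HAM genes, had 10, 36 and 21 24-nt reads in mat, 19 and 17 in pat and 0, 1 and 0 in nrpd1-/- (log2 fold change -6.14, SE 0.69, edgeR adjusted p = 1.92e-17 against mat, and -5.45, SE 0.84, adjusted p = 2.09e-10 against pat). The pooled ratio of mat to nrpd1-/- was 102, with an interval from 17.7 to 4088 because 1 read was left. DESeq2 gave -2.29, not past the threshold. As miR171c-3p passed the filter through the heterozygotes, a lower call was favoured in advance. miR171c-5p of the same hairpin had 109, 136 and 154 reads in mat, 351 and 59 in pat and 583, 395 and 254 in nrpd1-/-, or 62.0, 76.5 and 91.4, then 90.9 and 44.98, then 184, 141 and 129 per 10000. It was higher in nrpd1-/- (0.98, SE 0.28, adjusted p = 6.26e-04 against mat, and 1.14, SE 0.54, adjusted p = 0.0372 against pat, lost without pat replicate 3, at 0.73, or nrpd1-/- replicate 1, at 0.98, or 2, at 1.19). The 3p arm thus gave 8.40%, 20.9% and 12% of the 24-nt reads of the hairpin in mat, 5.14% and 22.4% in pat and 0%, 0.253% and 0% in nrpd1-/-. The 0 of 583 and 0 of 254 reads allow a share of up to 0.631% and 1.44% by the exact (Clopper-Pearson) interval. miR171b-3p, identical in sequence to miR171c-3p, had 3, 1 and 4 reads in mat, 3 and 3 in pat and 0 in every nrpd1-/- library, too few to pass the filter, and the pooled level was at least 4.06-fold higher in mat (floor of 3 reads over the group).

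**Figure D4:**
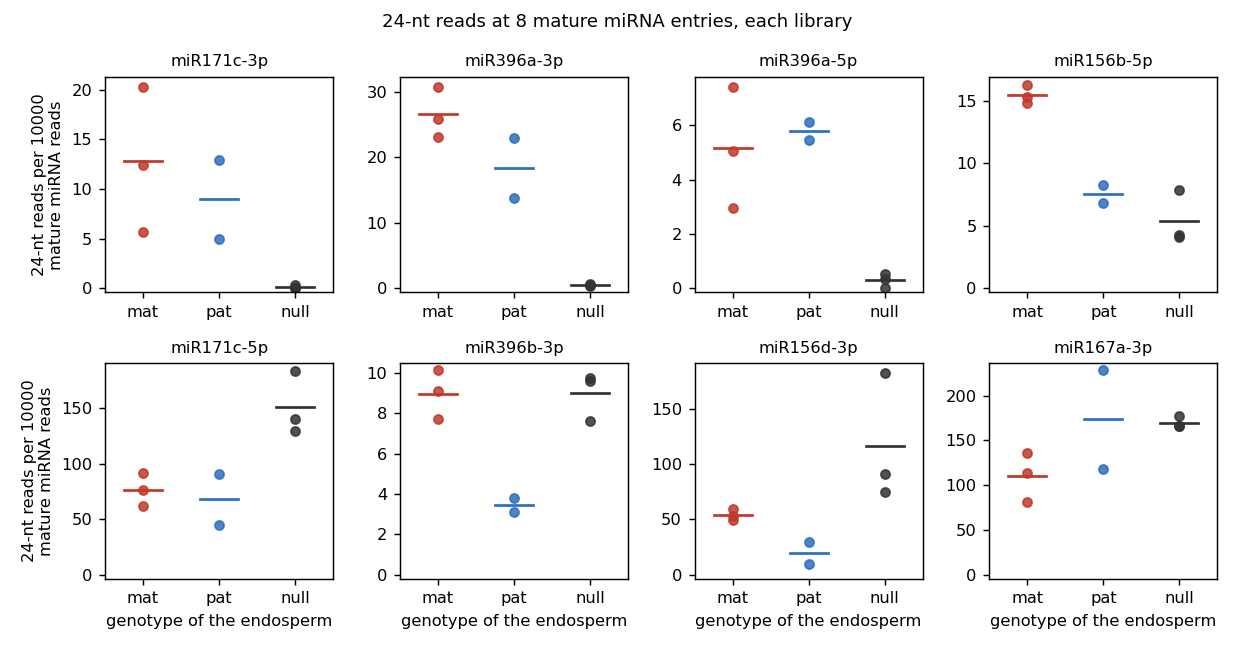
24-nt reads per 10000 mature miRNA reads at 8 entries, 1 panel each with its own linear axis from 0, for mat nrpd1+/- (n = 3, red), pat nrpd1+/- (n = 2, blue) and nrpd1-/- (n = 3, dark, marked null), with lines at the group means. miR171c-3p and both miR396a arms are near 0 in nrpd1-/-, while the lower row (miR171c-5p, miR396b-3p, miR156d-3p and miR167a-3p) holds miR396b-3p, which overlaps mat, and 3 entries with all nrpd1-/- values above the mat range; the sign of miR156b-5p in nrpd1-/- turns when libraries are scaled by all features.

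Members of the miR156 and miR157 families, which share SPL targets, went in different directions. The miR157 family had 20.5, 18.6 and 11.9 reads per 10000 in mat, 5.18 and 5.34 in pat and 0.945, 0.356 and 2.04 in nrpd1-/-, and all 3 groups were apart (log2 fold change -3.99, SE 0.50, edgeR adjusted p = 6.99e-15 against mat, and -2.32, SE 0.58, adjusted p = 7.87e-05 against pat). It kept 8 reads over the 3 nrpd1-/- libraries, and its sign turned with scaling by TMM over all features (0.39) and by DESeq2 (0.22). The family passed the filter through the heterozygotes, which favoured a lower call in advance. miR156d-3p rose instead, to 91.0, 74.4 and 182 per 10000 in nrpd1-/- (1.10, SE 0.30, adjusted p = 3.26e-04 against mat, and 2.61, SE 0.57, adjusted p = 5.95e-06 against pat). miR156b-5p, with 15.4, 16.3 and 14.8 in mat and 7.87, 4.27 and 4.07 in nrpd1-/-, and miR156b-3p, with 16.5, 15.7 and 20.2 against 5.67, 7.83 and 10.7, were lower than in mat (-1.47 and -1.14) but turned positive when scaled by all features (2.95 and 3.22). The miR156 family as a whole overlapped between nrpd1-/- and mat (0.39, SE 0.27, adjusted p = 0.15).

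miR167a-3p, opposite to the ARF6 and ARF8 guide, was the most abundant member at 24 nt in every mat and pat library. It had 80.8, 136 and 113 reads per 10000 in mat, 229 and 118 in pat and 165.9, 166.6 and 177 in nrpd1-/-. The nrpd1-/- values were close together and above all mat values (log2 fold change 0.63, SE 0.27, edgeR adjusted p = 0.0238), but they lay between the pat values. The call was lost without mat replicate 1 (0.45). miR159b-3p, the most abundant member at 21 nt, had 17.1, 10.1 and 8.90 in mat, 4.40 and 11.4 in pat and 11.3, 13.2 and 16.3 in nrpd1-/-, which overlapped. Of the other entries that lead their family at 24 nt, miR166b-5p had 11.4, 8.996 and 16.0 in mat, 9.07 and 9.91 in pat and 16.1, 14.6 and 18.3 in nrpd1-/-.

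The rest were scarce. miR165a-5p had 6, 6 and 13 24-nt reads in mat, 17 and 4 in pat and 17, 14 and 9 in nrpd1-/-. miR170-5p had 0, 3 and 3, then 8 and 0, then 10, 8 and 10. miR157c-3p had 10, 3 and 6, then 9 and 3, then 1, 0 and 1, and miR164b-5p had at most 6 in any library. Of these, miR157c-3p had its fewest reads in nrpd1-/- and miR170-5p its most.

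By family, 1 of the 11 tested was higher and 2 were lower in nrpd1-/- than in mat nrpd1+/-, against 2.61% higher and 88.9% lower over 5554 features (91.6% in all). These were miR171 (0.71, SE 0.28, edgeR adjusted p = 0.0112, lost without mat replicate 1, at 0.55, or 2, at 0.77), miR157 and miR396 (-1.87, SE 0.32, adjusted p = 1.17e-08). The sign of the miR396 family turned with TMM factors over all features (2.59), and 11 of 12 families were then higher and 0 lower.

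**Figure D5:**
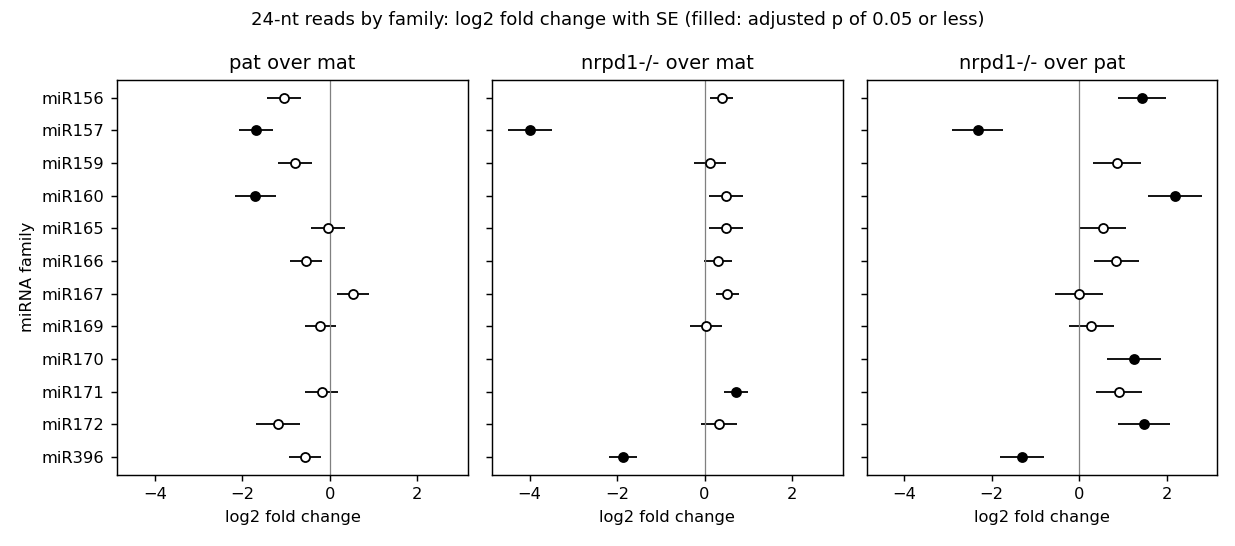
Log2 fold change with its SE (bars) of the 24-nt reads of each miRNA family, scaled by mature miRNA reads, for pat over mat nrpd1+/-, nrpd1-/- over mat and nrpd1-/- over pat; filled points passed an adjusted p of 0.05 or less in edgeR, and families that failed the filter on low counts have no point. In this scaling miR157 is lower in nrpd1-/- in both panels (-3.99 and -2.32), and miR396 too (-1.87 and -1.31); with DESeq2's size factors these turn positive.

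Against pat nrpd1+/-, which shares no library with the mat group but shares the nrpd1-/- libraries with the previous comparison, 88.9% of 9242 features were lower in nrpd1-/- and 0.833% were higher (89.8% in all). Of 153 mature miRNA entries of other families tested, 65 were lower and 15 higher, with a median log2 fold change of -0.53. Of the 27 members tested, 4 were lower and 7 higher, with a median log2 fold change of 0.79 against -4.24 for all features. With TMM factors over all features 24 of 24 were higher, and with DESeq2 23 of 27. Without pat replicate 2 there were 2 lower and 5 higher, and without pat replicate 3 there were 4 lower and 9 higher, each with 1 pat library left.

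Several of the higher entries had few reads in pat. Those that follow passed the filter through their nrpd1-/- reads, which favoured a call in advance. miR172b-3p, a guide against AP2-like genes, had 2 and 0 24-nt reads in pat, 18, 26 and 13 in nrpd1-/- and 8, 11 and 6 in mat nrpd1+/-. Its pat values were below those of both other groups (nrpd1-/- over pat, log2 fold change 4.08, SE 0.86, edgeR adjusted p = 3.18e-06). However, miR172a, listed by coordinates only, has the same mature sequence. It had 11, 9 and 6 reads in mat, 2 and 6 in pat and 0 in every nrpd1-/- library. Reads cannot be assigned with certainty to either entry, so the rise at miR172b-3p may not be one of the sequence. miR160c-3p had 7 and 0 reads in pat, 2, 0 and 0 in mat and 28, 21 and 9 in nrpd1-/- (2.42, SE 0.68, adjusted p = 4.80e-04). Both miR169g arms were higher too. The 5p arm, the guide against NF-YA genes, had 27, 24 and 7 reads in nrpd1-/- against 7 and 3 in pat (1.83, SE 0.65, edgeR adjusted p = 0.00531). The 3p arm had 21, 10 and 9 against 6 and 1 (1.87, SE 0.67, adjusted p = 0.00606). The 5p call was lost without pat replicate 2 (1.61) and the 3p call without either pat replicate (2.62 and 1.65).

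The fourth lower entry was miR169b-3p, with 28 and 7 reads in pat, 3, 2 and 4 in mat and 1, 4 and 1 in nrpd1-/-. It passed the filter only in this comparison, through its pat reads (log2 fold change -3.06, SE 0.62, edgeR adjusted p = 1.09e-06), and its sign turned with DESeq2 (0.08). By family, 4 of 12 were higher (miR160, 2.19; miR172, 1.48; miR156, 1.43; miR170, 1.24) and 2 lower (miR157 and miR396), against 0.761% and 89.2% of 9204 features (90% in all). Without pat replicate 2 the calls of miR156 (0.90) and miR172 (0.99) were lost, without pat replicate 3 those of miR170 (0.80) and miR396 (-0.93), and without nrpd1-/- replicate 3 those of miR156 (0.92) and miR170 (0.99). With TMM factors over all features 11 of 11 were higher. In the main fit miR160, miR172 and miR170 passed the filter through their nrpd1-/- reads, and miR157 through its pat reads. This favoured the direction of their calls in advance.

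The mRNA genes that these families target were followed through the sRNA reads counted over 63 of them, from SPL to GRF genes. At 21 nt 20 of the 63 passed the filter, and 0 were called between pat and mat nrpd1+/- (edgeR). At an unadjusted p under 0.05 there were 4 of the 20, beside 837 of all 3357 features. MYB101, a miR159 target, had the most 21-nt reads at 30.7 ± 4.53 per 10000 in mat (n = 3) and 18.4 ± 2.47 in pat (n = 2), with a log2 fold change of -0.74 and an adjusted p of 0.12. At 24 nt 1 of 21 was called between the heterozygotes, PHV, an HD-ZIP III gene, with 71, 48 and 60 reads in mat and 52 and 22 in pat (-1.21, SE 0.37, adjusted p = 0.0149).

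In nrpd1-/- the target genes that passed the filter were called lower about as often as features at large. Of the 63 genes 11 passed it against mat and all 11 were lower, near the 88.7% of all features, and against pat 21 of 23 were lower, near 88.9%, with medians of -3.81 and -3.55. Genes near 0 in nrpd1-/- passed the filter through the heterozygote, so that such genes had to be lower. The same filter applied to all features. The 2 not called against pat were SPL10 (-0.47) and PHB (-1.08). ARF6 had 68, 100 and 85 reads in mat, 127 and 45 in pat and 5, 10 and 7 in nrpd1-/- (log2 fold change -4.08, SE 0.39, edgeR adjusted p = 2.70e-23 against mat). PHV had 6, 8 and 5 in nrpd1-/- (-3.81, SE 0.41, adjusted p = 4.67e-19), and TCP2, a miR319 target, had 21, 19 and 11 in mat and 2, 0 and 0 in nrpd1-/- (-4.99, SE 0.61, adjusted p = 2.26e-15). SPL13A and SPL13B, near-identical copies whose reads may be split between them, had 33 to 50 reads per mat library and 0 to 2 per nrpd1-/- library. CNA, another HD-ZIP III gene, had 60 and 24 reads in pat and 1, 3 and 1 in nrpd1-/- (-4.63 against pat). In the same libraries miR167a-5p, the guide for ARF6, had 22.8, 27.0 and 28.5 24-nt reads per 10000 in mat and 27.4, 27.8 and 33.1 in nrpd1-/-, which overlapped.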

How the data were processed

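The authors removed adapters with Cutadapt and PCR duplicates with Prinseq (by the adapters' random bases), aligned reads with Bowtie 1.2.2 to TAIR10 and a Ler pseudo-genome, reported the best alignment with up to 2 mismatches, lifted Ler positions to Col-0, split reads by length, and counted those overlapping Araport11 genes and mature miRNAs. Whether counting used strand is not given in the sources used here. The deposited tables hold these raw read counts per feature and library. Their 395 other per-library columns and the authors' DESeq2 fold changes and p-values were not used.

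Rows for reads in no gene (53.2% to 59.9% of 21-nt and 56.2% to 88.5% of 24-nt reads) were left out. All 427 mature entries were named by exact coordinates in RefSeq TAIR10.1. Counts were tested in R 4.3.3 with edgeR 4.0.16 (quasi-likelihood, filterByExpr with a minimum count of 10, library size from mature miRNA reads, 2 groups per fit, Benjamini-Hochberg adjustment over all features tested, called at 0.05), with DESeq2 1.42.0 as an alternative. Families were sums of entries by miRNA number. The tests were tested on simulated data. Replicates are pools from different parent plants, so p-values measure the spread between these libraries, and intervals cover counting error only. Another 21-nt table, of nrpd1-/-, was not used.

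Named were, in every family, the most abundant entry per size class, the called entries (at most 12 per comparison, by size of change) and at most 5 called target genes per comparison and direction. Other entries and target genes were named after their values were seen. Members, gene lists and tests were chosen with earlier results of these data known. A planned look at MIR precursor genes in the 22- and 23-nt tables was not run, since no such gene was found there. The closing section gives the effects of other scalings, filters, thresholds, left-out libraries and the replicate number as a block.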

Additional observations from a re-analysis of the deposited data

How the results depend on the processing

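The counts depend most on how libraries are scaled, and 24-nt counts of scarce entries on single libraries. In the order pat against mat, nrpd1-/- against mat and nrpd1-/- against pat, the members called at 24 nt numbered 4, 7 and 11 entries and 2, 3 and 6 families. With TMM factors over all features they were 2, 23 and 24 entries and 1, 11 and 11 families. With all reads of the table as library size they were 13, 23 and 24 entries and 7, 11 and 11 families, and 8 entries and 4 families at 21 nt. With DESeq2 they were 1, 16 and 23 entries and 0, 10 and 11 families. The cause was not tested. TMM over mature miRNAs gave 17 entries for nrpd1-/- against pat, no filter gave 19 for nrpd1-/- against mat, and 21-nt miRNA reads as library size gave 2 for pat against mat. A minimum of 20 reads per group, which left fewer entries to test, gave 2, 2 and 1 entries and 0, 1 and 1 families. An adjusted p of 0.01 gave 1 entry for pat against mat and 3 families for nrpd1-/- against pat.

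Signs turned in nrpd1-/- against mat for miR156b-5p (2.95 with TMM over all features, 0.48 with table totals, 2.80 with DESeq2), miR156b-3p (3.22, 0.80 and 3.08), the miR396 family (2.59, 0.099 and 2.42) and the miR157 family (0.39 with TMM and 0.22 with DESeq2). Against pat they turned for the miR396 family (2.82, 1.22 and 1.92) and, with DESeq2, miR157 (0.90) and miR169b-3p (0.084).

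Leaving out 1 library gave 2 to 6 entries and 0 to 2 families at 21 nt. At 24 nt it gave 0 to 9, 7 to 10 and 7 to 13 entries, and 0 to 5, 2 to 5 and 4 to 5 families. As a percentage of all table reads the member share differed at 24 nt by -0.0399, 0.364 and 0.404 points. Without the most abundant family it differed by -1.39 points in pat against mat, and the 24-nt reads per 1000 21-nt reads in mat were 11.6.

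Replicate numbers were not taken to pair the libraries: deviations of mature entries in same-numbered libraries correlated at -0.21, 0.16 and -0.20 in nrpd1-/- against mat, 0.097 and 0.52 in nrpd1-/- against pat, and in pat against mat at 0.24 and -0.30 (21 nt) and -0.16 and -0.38 (24 nt). With the replicate block 3 entries were called at 21 nt and 0, 6 and 11 at 24 nt, and 0 families at 21 nt and 2, 2 and 5 at 24 nt. The block with TMM factors over all features gave 6 entries at 21 nt, 1, 23 and 24 entries and 0, 11 and 11 families at 24 nt, and turned miR156b-5p (2.86), miR156b-3p (3.22), miR157 (0.40) and miR396 (2.56) against mat and miR396 (2.71) against pat. Counting overlapping entries once and adding coordinate-only entries to families were chosen after seeing the data. Each kept every count within 1.5 times.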

Other observations

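The 32 entries of the same families that are listed by coordinates only held more 21-nt reads than the named members: 35.3% to 38.3% of mature miRNA reads in mat and 26.2% and 29.3% in pat nrpd1+/-. Most were miR159a, whose guide differs little from that of miR159b, with 114722, 127675 and 121692 reads in mat and 107719 and 80540 in pat. It was lower in pat (log2 fold change -0.65, SE 0.20, edgeR adjusted p = 0.0392), the only 1 of 20 tested that was called. miR319a, against TCP genes, had 4306, 2710 and 2924 21-nt reads in mat and 6061 and 5146 in pat (0.50, SE 0.28, adjusted p = 0.30).

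At 24 nt several of these entries, picked after their values were seen, had no read left in nrpd1-/-. miR160b had 7, 12 and 12 reads in mat, 3 and 4 in pat and 0, 0 and 0 in nrpd1-/-. miR172a had 11, 9 and 6, then 2 and 6, then 0, 0 and 0. However, miR160b is identical in mature sequence to miR160a-5p, and miR172a to miR172b-3p, which kept reads in nrpd1-/-. Reads of such entries cannot be assigned with certainty to a single hairpin. miR169j had 5, 4 and 4, then 15 and 6, then 0, 0 and 0. In contrast, miR159c had 380, 317 and 297 in mat and 717, 712 and 482 in nrpd1-/- (log2 fold change 0.34, SE 0.25, adjusted p = 0.19), and miR172c had 26, 26 and 30 against 65, 101 and 32 (0.63, SE 0.33, adjusted p = 0.061).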
